A study of Mus musculus with 4 samples.

Results

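The accessible sites described here lie around 5 mouse genes of cytokine signalling, Stat5b, Stat5a, Stat3, Cish and Socs1. They were chosen by position on the mm9 build. A DNase I peak was included when its midpoint fell in chr11:100620000-100820000, which holds Stat5b, Stat5a and Stat3 and is called the STAT window here, in chr9:107150000-107250000 around Cish, or in chr16:10700000-10860000 around Socs1. In all, 107 of the 84735 peaks in the 4 deposited lists met this rule. They merged into 47 of the 38986 union regions, with 11 in the STAT window, 13 in the Cish window and 23 in the Socs1 window. Each of these 47 regions is called a site and is numbered along its window from the lower coordinate.

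The cells were CD8+ T cells of the naive surface phenotype, GFP+ TCRbeta+ CD62Lhi CD44lo-med, sorted from spleen and then kept for 72 h in IL-7 plus IL-15 before lysis and DNase I digestion. The 2 DKO libraries came from cells labelled Tcf1-/-Lef1-/-, from mice with both genes floxed, and the 2 WT libraries from cells wild type for both. All mice carried hCD2-Cre, a recombinase under human CD2 control sequences that acts in lymphocytes, and a Rosa26 reporter that makes GFP once Cre has removed a stop cassette, so the WT cells had also been exposed to Cre. The labels give no age or sex, and nothing in them ties the replicates to separate mice. Any p-value given here measures the spread between these libraries only, which may be technical. Cell identity and the loss of Tcf1 and Lef1 were not checked here against marker genes, because no mm9 annotation was used.

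IL-7 and IL-15 bind receptors that share the common gamma chain, and these receptors act through the kinases Jak1 and Jak3. The kinases phosphorylate STAT5, which is made from the neighbouring genes Stat5a and Stat5b, and STAT5 dimers then enter the nucleus and bind DNA. Stat3, a relative next to them on the chromosome, is best known for responses to IL-6, IL-10 and IL-21. Cish and Socs1 encode SH2-domain proteins that are induced by cytokine signalling and dampen it, Socs1 by binding and inhibiting JAK kinases. In the RefSeq annotation of another build, GRCm38.p6, the protein-coding order is Ghdc, Stat5b, Stat5a, Stat3 and Cavin1 on chromosome 11. There Cish lies between Mapkapk3 and Hemk1, and Socs1 between Clec16a and Tnp2. Coordinates were not carried from that build to mm9, so no site is assigned to a gene, a promoter or an intron.

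The promoters of the feedback inhibitors are shown because STAT dimers recognise the palindrome TTCNNNGAA. RefSeq promoter sequences of GRCm38.p6 run from 250 bases before to 50 bases after the annotated start. All 5 genes were matched, Stat5a and Stat5b with 2 starts each. The Cish promoter (chr9:107296409-107296708, plus strand) and the Socs1 promoter (chr16:10785487-10785786, minus strand) read as follows, 5′ to 3′, with matches to TTCNNNGAA in capitals.
Cish: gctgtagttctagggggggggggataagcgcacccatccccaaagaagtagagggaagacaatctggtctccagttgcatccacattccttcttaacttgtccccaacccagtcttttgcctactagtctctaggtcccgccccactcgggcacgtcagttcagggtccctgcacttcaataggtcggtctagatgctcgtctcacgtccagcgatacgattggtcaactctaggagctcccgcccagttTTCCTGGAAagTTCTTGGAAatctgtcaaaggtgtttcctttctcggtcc
Socs1: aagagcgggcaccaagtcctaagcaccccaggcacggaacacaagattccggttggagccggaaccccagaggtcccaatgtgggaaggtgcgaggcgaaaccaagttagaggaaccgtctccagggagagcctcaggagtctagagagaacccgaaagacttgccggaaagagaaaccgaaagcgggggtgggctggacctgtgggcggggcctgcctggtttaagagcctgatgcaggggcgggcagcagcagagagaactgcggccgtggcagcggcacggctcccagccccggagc
The Cish promoter holds 2 matches, TTCCTGGAA beginning at the annotated start, counted as base 1, and TTCTTGGAA beginning at base 12, with 2 bases between them. Neither match overlaps the other, and the motif is its own reverse complement, so both strands were searched together. Of the 32851 promoters in the table, 8.30% hold at least 1 match and 0.457% hold at least 2. The letters TTCNNNGAA were not in these stretches of Socs1, Stat3, Stat5a or Stat5b. For TCF/LEF only 1 form of the core, CTTTGAA, was searched, with its reverse complement TTCAAAG. It was in none of the promoters of the 5 genes and in 5.14% of all promoters. Other forms of the core were not searched. These matches are descriptions of sequence, and the peaks of these libraries were not placed on them.

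The peak lists differed in length over the whole genome, which bears on each count below. DKO replicates 1 and 2 had 34788 and 21353 peaks, and WT replicates 1 and 2 had 17521 and 11073. Read totals are not in the lists. The lowest local background, which grows with depth where no control library sets it, was 1.23 and 1.15 fragments in the DKO libraries and 1.5004 and 1.47 in the WT libraries. Peaks on chromosome Y numbered 55 and 57 in the DKO lists and 0 in both WT lists, and the labels give no sex. Since these calls split the 4 libraries exactly by genotype, whatever goes with them, a difference of sex included, cannot be told apart from genotype in any comparison below.

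At these 3 windows more peaks were called in both DKO libraries than in either WT library. DKO replicates 1 and 2 had 43 and 31 peaks, against 24 and 9 in WT replicates 1 and 2. As a share of each list this was 0.124% and 0.145% in DKO and 0.137% and 0.0813% in WT. On that scale the genotypes overlapped. The means were 37.0 ± 8.5 peaks in DKO and 16.5 ± 10.6 in WT (SD, n = 2 each), a difference of 1.31 on the log2 scale of the geometric means. By exact permutation, two-sided, p was 0.33, and 2 libraries against 2 cannot give less. The same log2 difference over all peaks of the genome was 0.97. A site that is open in fewer cells and a site that is less open in each cell cannot be told apart in such libraries. Without WT replicate 2 the log2 difference in the windows was 0.61, and without WT replicate 1 it was 2.02. With each list held to its 11073 peaks of highest −log10 p, the length of the shortest list, it was 0.64. The genome value of 0.97 is for all 4 full lists and was not recomputed for these settings. Since WT replicate 2 had the shortest list, the genome difference also falls without it and rises without WT replicate 1. At equal lengths the lists do not differ in peak number over the genome. Whether the windows exceed the genome was not tested.

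Raw counts overlapped between the genotypes in the STAT window and not in the other 2. In the STAT window the libraries had 11 and 10 peaks in DKO, against 10 and 4 in WT, and DKO replicate 2 and WT replicate 1 were equal. In the Cish window the counts were 13 and 6 in DKO and 5 and 2 in WT. The Socs1 window held 19 and 15 peaks in DKO and 9 and 3 in WT. The lower DKO count was thus 1 above the higher WT count at Cish and 6 above it at Socs1. Lists differ in length, so each count was also taken as a share of its list. At Cish the shares were 0.0374% and 0.0281% in DKO and 0.0285% and 0.0181% in WT, which overlapped. STAT shares overlapped too, at 0.0316% and 0.0468% in DKO and 0.0571% and 0.0361% in WT. Those at Socs1 were 0.0546% and 0.0702% in DKO and 0.0514% and 0.0271% in WT, without overlap. Whether the windows differ from each other in the size of this contrast was not tested. Per 100 kb, the STAT window had 5.5 sites, the Cish window 13.0 and the Socs1 window 14.4. Across the genome, the median was 3.0 among the 10701 grid windows of 100 kb that hold any region.

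**Figure D1:**
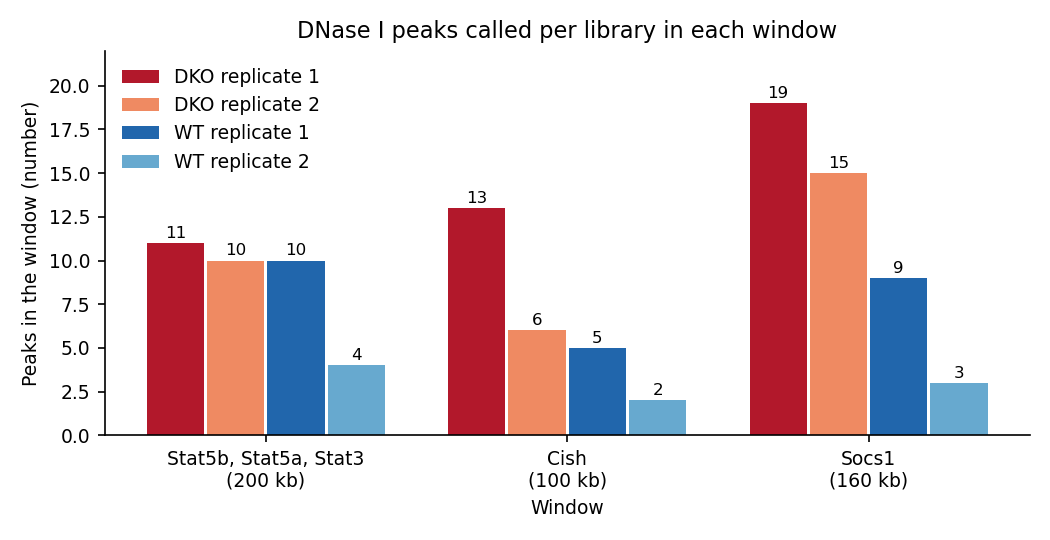
Bars give the number of DNase I peaks with midpoint in each window (y axis, number of peaks from 0) for each library, DKO in reds and WT in blues, with the count above each bar. DKO replicate 1 is highest in all 3 windows and WT replicate 2 lowest, and the DKO and WT counts meet only in the STAT window, at 10.

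Most sites fell into few patterns of calls. All 4 libraries called 8 of the 47 sites, or 17.0%, against 20.7% of all union regions. Both DKO libraries and neither WT library called 7 sites, or 14.9%, against 14.3% of all regions, so this share was near that of the genome. No site was called in both WT libraries and neither DKO library, a class that holds 0.631% of all regions. Another 12 sites, or 25.5%, were called in every library but WT replicate 2, against 11.6% of all regions. Calls in 1 library made up 16 sites, or 34.04%, against 41.7%, and 13 of these were in DKO replicate 1. The remaining 4 sites, Cish site 11 and Socs1 sites 5, 12 and 23, were each called in 2 or 3 libraries, with both genotypes among them.

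These counts depend on which lists are compared. Without WT replicate 1 there were 19 sites called in both DKO libraries and not in WT, and without DKO replicate 2 there were 20 called in DKO replicate 1 and in neither WT library. Without WT replicate 2 the sites called in all remaining libraries numbered 20, against 8 in all 4. With 1 library fewer, counts of this kind cannot fall. DKO replicate 1 called 91.5% of the sites and DKO replicate 2 called 66.0%, while WT replicates 1 and 2 called 51.1% and 19.1%. Over all union regions these shares were 88.6% and 53.9% for DKO and 44.5% and 28.2% for WT.

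**Figure D2:**
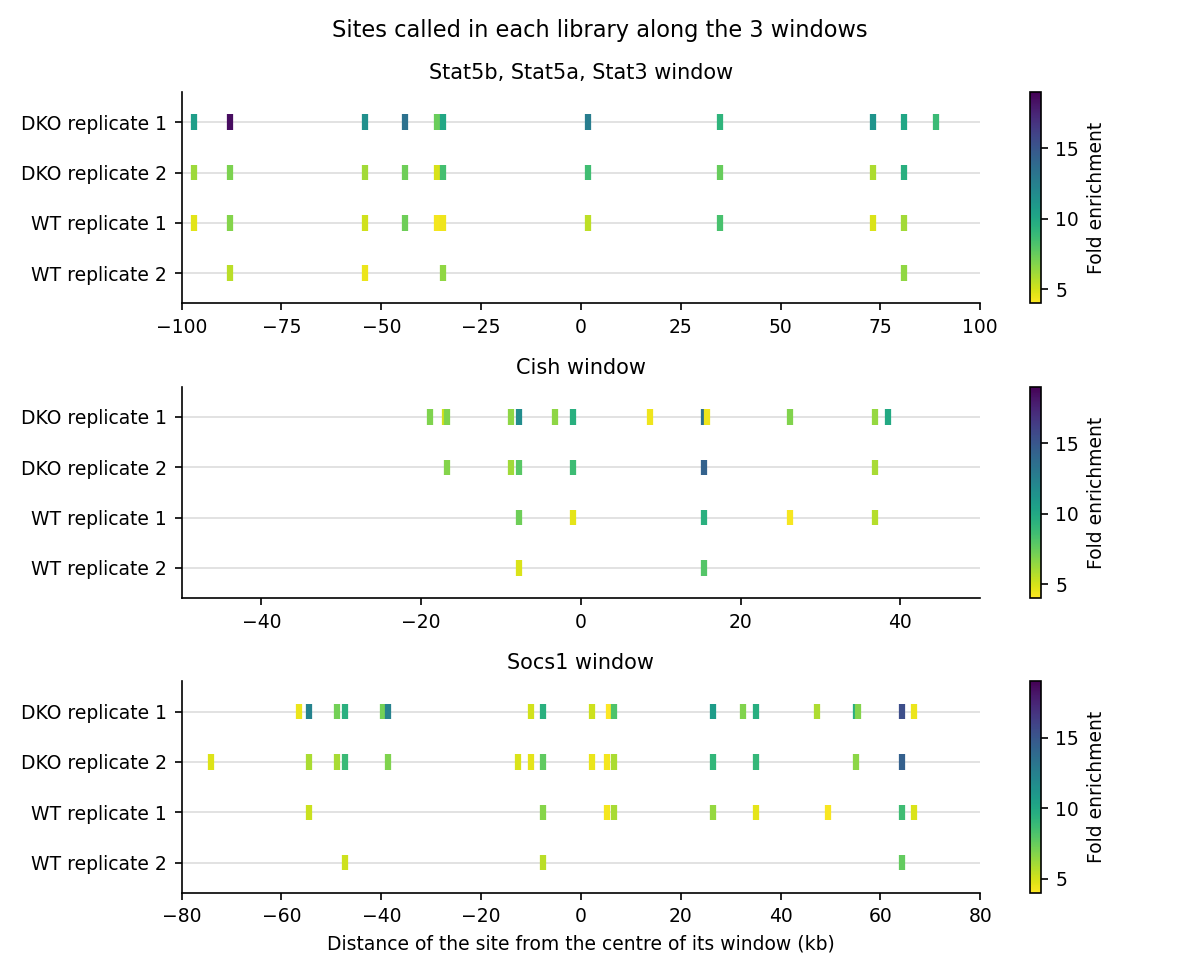
Each bar marks a called site at its distance in kb from the centre of its window (x axis), with 1 row per library and colour for the authors' fold enrichment. The STAT window shows the same columns in both DKO libraries and WT replicate 1, apart from a last bar in DKO replicate 1, while the Cish and Socs1 windows show further DKO bars with none below them in the WT rows.

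In the STAT window nearly the same sites were called in both DKO libraries and in WT replicate 1. Of its 11 sites, 10 were called in both DKO libraries (48.9% of all regions were), and the same 10 were called in WT replicate 1 (44.5% of all regions). WT replicate 2 called 4 of them (28.2% of all regions). No site of this window was called in both DKO libraries and neither WT library, a class that holds 14.3% of all regions, and 11 sites are few. Site 11, chr11:100809011-100809105, was called in DKO replicate 1 alone, with a fold enrichment of 8.85. The fold enrichment is the authors' own value for a peak, the pileup of fragments at its summit over the local background, with 1 added to each.

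The strongest STAT site by mean fold was site 2, chr11:100632024-100632432, but it had the window's highest fold only in DKO replicate 1. Site 10 was highest in DKO replicate 2 and WT replicate 2, at 9.56 and 6.49, and site 8 in WT replicate 1, at 8.37. In each window the strongest site was picked by the same folds that are compared. The fold of site 2 was 18.5 and 6.97 in DKO replicates 1 and 2, against 6.80 and 5.55 in WT replicates 1 and 2. The value of DKO replicate 1 stood far above the other 3, and DKO replicate 2 lay close to WT replicate 1. Behind these folds stood 44 and 15 fragments at the summit in DKO and 19 and 15 in WT. The mean difference was 6.56 in fold, with an exact permutation p of 0.33, but it was 0.79 without DKO replicate 1 and 12.3 without DKO replicate 2. Against the median fold of all regions called in all 4 libraries, the site reached 1.40 and 0.73 in DKO and 0.91 and 0.84 in WT, and on that scale the groups overlapped.

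The other STAT sites called in all 4 libraries were 3, 6 and 10. Site 3, chr11:100665855-100666197, had folds of 11.5 and 6.06 in DKO and 5.10 and 4.46 in WT. Site 6, chr11:100685319-100685602, had 10.1 and 8.51 in DKO and 4.37 and 6.46 in WT. Both DKO folds were above both WT folds at each of these sites. The median folds of all regions called in all 4 libraries had the same order, at 13.2 and 9.59 in DKO and 7.51 and 6.61 in WT. The share of those regions with this order was not computed. By percentile of −log10 p among those regions, site 6 overlapped, at 22.7 and 35.9 in DKO and 3.87 and 52.0 in WT. Site 10, chr11:100800688-100801236, spans 549 bp, the widest of the 47 sites, and had folds of 10.1 and 9.56 in DKO and 6.08 and 6.49 in WT. Its folds lay close together within each genotype, with 43 and 34 fragments in DKO and 22 in both WT libraries. By the same percentile it stood at 33.0 and 62.4 in DKO and 29.2 and 55.5 in WT. On that scale the replicates lay far apart and the genotypes overlapped.

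Among the STAT sites missing in WT replicate 2 alone, sites 4 and 7 had the highest folds in DKO replicate 1. Site 4, chr11:100675873-100676148, had folds of 13.4 and 7.30 in DKO and 7.30 in WT replicate 1, so DKO replicate 2 and WT replicate 1 did not differ to 3 digits. Site 7, chr11:100721582-100721924, had 12.7 and 8.57 in DKO and 5.48 in WT replicate 1. The other 4 such sites ranged from 7.42 to 11.2 in DKO replicate 1, from 4.89 to 7.51 in DKO replicate 2 and from 4.25 to 8.37 in WT replicate 1. At site 8, chr11:100754860-100755004, the folds of 9.26 and 7.51 in DKO lay on either side of the 8.37 of WT replicate 1.

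The Cish window carried 1 strong site in every library. Site 9, chr9:107215172-107215640, had folds of 13.6 and 14.4 in DKO, against 9.49 and 8.005 in WT. It had the highest fold of its window in all 4 libraries, with 52 and 44 fragments at the summit in DKO and 35 and 25 in WT. The means were 14.0 ± 0.6 in DKO and 8.75 ± 1.05 in WT (SD, n = 2 each), a difference of 5.21 with an exact permutation p of 0.33. Relative to each library's median over the shared regions it stood at 1.03 and 1.497 in DKO and at 1.26 and 1.21 in WT, so the genotypes overlapped once the general level of each list was taken into account. The summits of the 4 libraries lay within 11 bp of each other. A further peak 94 bp beyond it, site 10, was called in DKO replicate 1 alone at a fold of 4.39.

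Site 5 of the Cish window, chr9:107192143-107192353, was the other one called in all 4 libraries. Its folds were 11.7 and 7.92 in DKO and 7.29 and 4.83 in WT. The lower DKO value was close to the higher WT value. Site 7, chr9:107198836-107199158, was called in all but WT replicate 2, with 9.52 and 8.71 in DKO and 4.61 in WT replicate 1. Site 12, chr9:107236710-107237064, with the same pattern of calls, had 6.34 and 5.97 in DKO and 5.64 in WT replicate 1, a narrow spread.

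The Cish sites called in both DKO libraries and neither WT library were 3 and 4, or 15.4% of its sites, against 14.3% of all regions. Site 3, chr9:107183226-107183358, had folds of 6.86 and 6.76 in DKO replicates 1 and 2. Site 4, chr9:107191139-107191323, had 6.56 and 6.15 and lies between site 3 and the shared site 5. Both sites lay somewhat below the middle of their lists, with percentiles by −log10 p of 37.2 and 41.3 in DKO replicate 1 and 42.9 and 43.7 in DKO replicate 2. DKO replicate 1 alone called 6 more, at folds from 4.39 to 9.92. The highest of them, site 13, chr9:107238370-107238475, had 49 fragments at its summit, nearly as many as the 52 of site 9 in that library, over a local background of 4.04 fragments against 2.91. Site 11, chr9:107226094-107226253, was called in both replicates 1, at 6.82 in DKO and 4.20 in WT.

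The Socs1 window held the most sites, 23. Its strongest site was number 22, chr16:10844127-10844569, with folds of 15.5 and 14.4 in DKO and 8.68 and 7.59 in WT. It had 67 and 50 fragments in DKO and 35 and 27 in WT, the most of any of the 47 sites in the DKO libraries. The means were 14.96 ± 0.74 in DKO and 8.13 ± 0.77 in WT (SD, n = 2 each), a difference of 6.83 with an exact permutation p of 0.33. Set against each library's median over the shared regions it was 1.17 and 1.51 in DKO and 1.15 in both WT libraries. On this scale DKO replicate 1 and the WT libraries were nearly equal, and the log2 difference was 0.21.

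The other site called throughout was number 10, chr16:10772252-10772522, with folds of 9.46 and 7.66 in DKO and 6.71 and 5.53 in WT. All but WT replicate 2 called 4 sites, numbers 3, 14, 15 and 17, with folds from 8.22 to 12.3 in DKO replicate 1, from 5.91 to 9.10 in DKO replicate 2 and from 4.63 to 6.37 in WT replicate 1. Site 3, chr16:10725355-10725621, had the third highest fold of the window in DKO replicate 1, with 12.3 and 5.92 in DKO and 5.21 in WT replicate 1, but was not among the strongest in DKO replicate 2. Its DKO replicates were further apart than DKO replicate 2 and WT replicate 1. Site 5, chr16:10732620-10732854, was called in both DKO libraries, at 9.46 and 8.83, and in WT replicate 2, at 5.14, but not in WT replicate 1, the longer of the WT lists.

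In the Socs1 window 5 of the 23 sites, or 21.7%, were called in both DKO libraries and in neither WT library, against 14.3% of all regions. The strongest was site 7, chr16:10741327-10741475, with folds of 12.4 and 6.91 and 40 and 19 fragments in DKO replicates 1 and 2. Next came site 20, chr16:10835040-10835173, with 9.62 and 6.599. Both had their DKO summits within 1 bp of each other. Site 4, chr16:10731063-10731347, had 7.20 and 5.95. Sites 9 and 11, chr16:10769920-10770068 and chr16:10782083-10782254, were weaker, at 5.02 and 4.60 for site 9 and 5.14 and 4.48 for site 11. DKO replicate 1 alone called 6 more sites, at folds from 4.03 to 7.20, and DKO replicate 2 alone called 2, at 4.77 and 4.87. Site 19 was the one site of the 47 called in WT alone, in WT replicate 1 at a fold of 4.16.

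Local background was high in the middle of the Socs1 window. From site 9 to site 14, chr16:10769920-10786686, it lay between 4.38 and 5.70 fragments in DKO replicate 1, and at the window's other sites between 1.74 and 3.49. Site 13 had 26 fragments there and a fold of only 4.03, because the fold divides by that background, while site 16 reached 6.87 with the same 26 fragments. In WT replicate 1 the background over this stretch was 3.47 to 4.15, against 2.12 to 3.33 at the other sites. Sites 12 and 13 lie 166 bp apart. Site 12 was called in DKO replicate 2 and WT replicate 1, at 4.29 and 4.27, and site 13 in DKO replicate 1 alone.

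The sites that the WT lists lacked were weaker ones within the DKO lists. In DKO replicate 1 the median fold was 11.6 for the 8 sites called in both WT libraries, 9.52 for the 15 called in 1 of them and 6.67 for the 20 called in neither. Over the genome the first and last of these medians were 12.9 and 6.71. In DKO replicate 2 they were 8.21, 6.74 and 5.95 for 8, 14 and 9 sites. The ranges overlapped in DKO replicate 1, since sites in neither WT list reached 12.4 and those in both began at 9.46. The smallest fold listed was just above 4 in each library, so a site without a WT peak may lie below the listing threshold and was not shown to be closed.

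**Figure D3:**
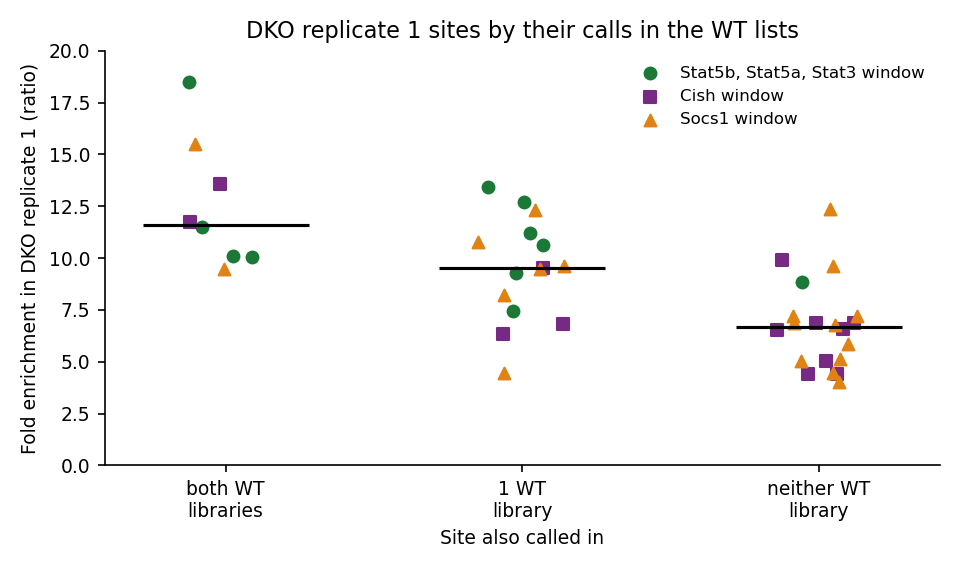
Points are the 43 sites of DKO replicate 1 by their fold enrichment (y axis, ratio), split by whether both, 1 or neither of the WT libraries called the site, with the window as symbol and a black line at the median. The medians are 11.6, 9.52 and 6.67 from left to right, and the sites of the STAT window, bar 1, lie in the first 2 columns.

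Holding all lists to 11073 peaks changed which sites appeared in DKO alone. At that length 21 sites remained in the windows, with 16 and 15 called in DKO replicates 1 and 2 and 11 and 9 in WT replicates 1 and 2. There were 4 sites called in both DKO libraries and neither WT library, or 19.05%, against 5.75% of the 18389 regions at this length. They were STAT site 7, Cish site 7 and Socs1 sites 7 and 17. For 3 of these 4 the full list of WT replicate 1 had a peak, and Socs1 site 7 was the one without a WT peak at either length. No site was called in both WT libraries and neither DKO library, against 4.61% of regions. STAT site 3 and Cish site 12 were each called in 1 WT library and in neither DKO library at this length. All 4 libraries called 5 sites, or 23.8%, against 29.3%. The cut removed no peak from WT replicate 2, and fewer from WT replicate 1 than from the DKO lists.

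**Figure D4:**
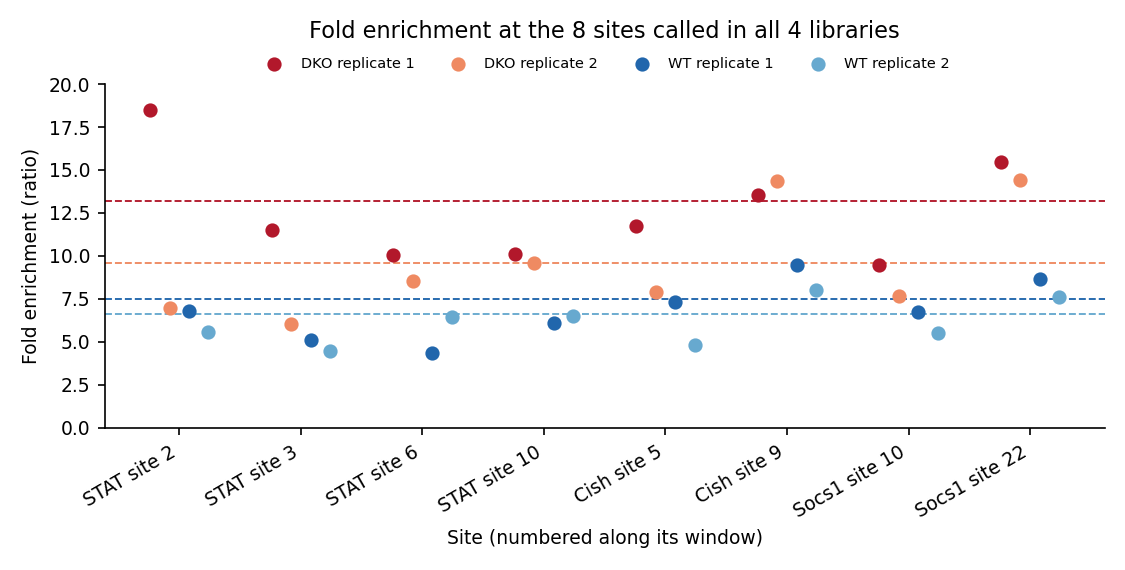
The authors' fold enrichment (y axis, ratio) is plotted for the 8 sites called in all 4 libraries, DKO in reds and WT in blues, and a dashed line in the same colour gives that library's median fold over all 8068 regions called in all 4 libraries. Folds run higher in the DKO libraries, and so do their medians, at 13.2 and 9.59 in DKO and 7.51 and 6.61 in WT.

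Because folds from separate lists are not on a common scale, the 8 shared sites were also ranked by −log10 p among the 8068 regions called in all 4 libraries, the same set in each library. The mean percentile of the 8 was 46.9 and 48.5 in DKO and 43.2 and 43.6 in WT, near the middle of the set in every library. The DKO mean was 4.36 percentile points above the WT mean, with an exact permutation p of 0.33. The STAT sites had the lowest mean of the 3 windows in every library, a description over 4 sites against 2 and 2. Their mean percentile was 35.5 and 29.5 in DKO and 17.0 and 33.2 in WT, against 56.2 and 65.9 in DKO and 72.4 and 48.9 in WT for the Cish sites. The Socs1 sites had 60.4 and 69.2 in DKO and 66.3 and 58.9 in WT.

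In rank, the genotypes overlapped at most of the 8 sites, as they did at most of all regions called in all 4 libraries. Whether the 8 sites differ from those regions in this share was not tested, and 8 sites are few. The percentiles of DKO and WT did not overlap at 2 of the 8 sites, against 39.4% of all regions called in all 4 libraries, and at both sites DKO was the higher. One was STAT site 3, at 19.7 and 6.27 in DKO and 5.12 and 2.63 in WT, near the bottom of the set in each library. The other was Socs1 site 22, at 82.6 and 93.8 in DKO and 80.2 and 77.9 in WT, which was high in all 4. Cish site 9 ranked at 60.9 and 90.8 in DKO and 84.7 and 77.1 in WT, so the WT libraries lay between the DKO libraries. At STAT site 2 the DKO replicates were 66.6 and 13.5 and the WT replicates 29.6 and 22.8, the widest replicate gap of the 8 sites. Summit positions differed between the libraries by a median of 22 bp over the 8 sites, against 44 bp over all shared regions.

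**Figure D5:**
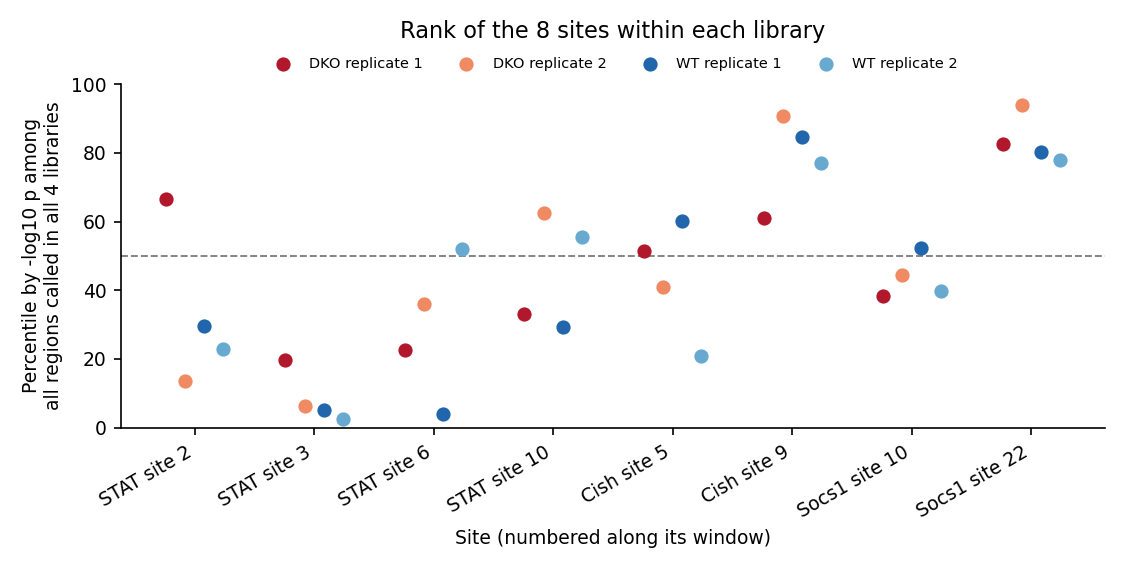
Each point is the percentile of a shared site by −log10 p among the 8068 regions called in all 4 libraries (y axis, 0 to 100, dashed line at 50), within 1 library. Cish site 9 and Socs1 site 22 lie above 50 in all 4 libraries, STAT site 3 lies below 20 in all 4, and most sites have DKO and WT points interleaved.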

How the data were processed

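The 4 deposited peak lists (2 DKO, 2 WT) are 1 per library and not pooled. Per the submitters' processing notes, Bowtie2 2.2.5, FastQC and MACS2 2.1.1 were used with mm9. Settings, any control library and the treatment of duplicates are not given in the sources used. For each peak the authors deposited a fold enrichment (a ratio), a −log10 p, a −log10 q and a score of 10 times the −log10 q. Peaks overlapping by at least 1 bp in any lists were merged, and a site is a region with a member peak. Positions count from 1. Fragments at the summit and the local background were solved from the authors' fold and −log10 p, for peaks with a −log10 p under 250, on the form MACS2 uses. The solved pileup was whole within 0.02 for 100% of peaks. The solution and the counting were tested on simulated data. Depth per sample is unknown. Libraries were compared by two-sided exact permutation, which cannot pass 0.05 here.

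By rule, sites called in all 4 libraries, sites called in 1 genotype and the 3 of highest fold per window are described one by one. Any other site given with its own values was added after they were seen. The genes, windows and lists were chosen with earlier results of these data known. Planned work on gene positions, other pathway genes and cell type markers needed an mm9 annotation and was not run. Python 3.11.15, pandas 2.3.3, numpy 2.4.6 and scipy 1.17.1 were used.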

Additional observations from a re-analysis of the deposited data

How the results depend on the processing

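Higher peak numbers in DKO held their direction in 10 of 10 settings, from 0.61 to 2.02 on the log2 scale when 1 library was left out, against 1.31 with all. At a −log10 q of at least 10 it was 2.30. The genome-wide difference was not recomputed in these settings, in which list lengths change too. The rank difference kept its direction in 9 of 9, from 4.90 to 6.56 points with 1 library left out, against 4.36 with all. It was 5.74 at a −log10 q of at least 5 and 9.99 at 10, where the genotypes overlapped (exact permutation p = 0.67 and 1). With 1 library left out or a higher threshold, the regions called in all lists change. These rank differences therefore rest on other sets of ranked regions than the 4.36. The tallies of 10 and 9 settings both include the replicate number as a block, which cannot change a mean difference. The tally of 10 also includes counting any peak that overlaps a window, which gave the same 1.31. Sites called in both DKO and neither WT library, 7 in all, became 12 at a −log10 q of at least 5, 4 at equal list lengths and 11 with windows widened by 20 kb, and ran from 8 to 20 with 1 library left out. Sites called in all 4 libraries, 8 in all, became 2 at a −log10 q of at least 10, 5 at equal list lengths and 4 where a peak had to cover at least 50% of the region or of its largest peak. They ran from 8 to 20 with 1 library left out. Sites called in both WT and neither DKO library stayed at 0 in 10 of 11 settings and numbered 1 without WT replicate 2. Fewer peaks entered at the higher thresholds and equal lengths, and more at the wider windows. The fold difference at the strongest site ran from 0.79 to 12.3 for STAT, 4.46 to 5.95 for Cish and 6.28 to 7.37 for Socs1 with 1 library left out. On the log2 scale relative to each list's median it was 0.21 for STAT and 0.002 for Cish, where the genotypes overlapped (exact permutation p = 1 each), and 0.21 for Socs1. With the replicate number as a block, which cannot change a mean difference here, the values were 1.31 and 4.36 (sign-flip exact p of 0.5, the smallest possible), and the fold differences were 6.56, 5.21 and 6.83. The numbers do not pair the libraries by the labels, and same-numbered deviations over the 8068 shared regions correlated at -0.01. Reads in sequence that Stat5a and Stat5b share could be placed at either gene, and their handling is not given.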

Other observations

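Distances from the window edges are given to the midpoint of a region. Inside the lower edge of the STAT window, site 1 lies 3.08 kb in, with folds of 10.6 and 6.18 in DKO and 4.67 in WT replicate 1. The nearest region outside it, 13.4 kb away, was called in both replicates 1, at 7.18 in DKO and 6.53 in WT. Just beyond the upper edge, 0.92 kb out, a region was called in WT replicate 1 alone at 4.76. The last site inside, 11, lies 10.9 kb from that edge, with 8.85 in DKO replicate 1 alone.

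The regions just outside the other windows had DKO calls and no WT call, a common state over the genome. Of the 34543 regions called in DKO replicate 1, 17922 were called in neither WT library. Both DKO libraries and neither WT library called 14.3% of all regions. Below the Cish window, 1.26 kb out, a region had folds of 14.4 and 7.42 in DKO and no WT call, and above it, 8.53 kb out, one had 15.7 in DKO replicate 1 alone. The first and last sites inside, 1 and 13, had 6.89 and 9.92 in DKO replicate 1 alone. Below the Socs1 window, 9.81 kb out, a region had 7.26 and 4.78 in DKO and no WT call. Above it, 13.9 kb out, another had 13.6 and 9.08 in DKO and no WT call. Inside, site 1 had 4.77 in DKO replicate 2 alone, and site 23 had 4.45 in DKO replicate 1 and 4.85 in WT replicate 1.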
